A study of Mus musculus with 2 samples.

Results

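The Rab GTPases are the genes whose symbol is Rab followed by a number and at most 1 letter from a to d, with at least 1 transcript annotated as protein-coding. There were 59 of them among 55536 annotated genes. Of these genes 22028, the members included, have protein-coding as their annotated gene type. The Rab-like genes and the Rab regulators have other symbols and were kept apart. The tissue was left cerebral cortex, and total RNA was sequenced. The donors were 10-day-old males of B6CASTF1/J, a first-generation cross between the strains C57BL/6J and CAST/EiJ. The 2 libraries, replicate 1 and replicate 2, form 1 group with no treatment and no mutant allele, and each was made from 300 ng of RNA. In the labels each library has its own animal number, while the donor identifier is shared. They were read as 2 animals, and the spread between them (SD, n = 2) may be partly technical. With 1 group there is no comparison between conditions and no p-value is given.

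Rab proteins are small GTPases that give each membrane of the secretory and endocytic pathways its identity. An exchange factor loads a Rab with GTP, the loaded Rab recruits effectors that move, tether and fuse vesicles, a GTPase-activating protein ends the signal, and a chaperone takes the GDP-bound Rab off the membrane. Lipid groups attached to cysteines at the end of the protein hold it on the membrane, and in neurons Rab3 proteins on synaptic vesicles take part in transmitter release.

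The ends of the coding sequences are shown because those cysteines are a feature that the members share outside their symbol. For each gene the protein-coding transcript with a complete coding sequence and the highest share of the gene's abundance was read from the annotation (GENCODE M21, build mm10). The last 30 coding bases, stop codon included, are given 5′ to 3′, with cysteine codons (TGT or TGC) in capitals.
Rab3a: gcgccacctcatcaggatTGTgccTGCtga
Rab3b: cctctgctgcagcagaacTGCtctTGTtag
Rab3c: cctccaccacagcccaacTGTggcTGCtaa
Rab3d: cccccacagccgagcagcTGCagcTGTtag
Rab6a: ccagtcaatgaaggcggcTGTtccTGCtaa
Rab6b: ccggccagcgagggcggcTGCtccTGTtaa
Rab7: aaggcctccgcagaaagcTGCagtTGTtga
Rab1a: gtcaagcagtcaggtggaggcTGCTGCtaa
Rab10: gtgacgggctggaagagcaagTGCTGCtga
Rab5a: ccagccagaagccagTGTTGTagtaactga
Rab11a: ccaaaggtgcagTGCTGTcagaacatctaa
Rab8b: accagtttcttccgcTGTtctctgctttga

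All 59 members carried a cysteine codon among the last 5 before the stop. The same held for 1199 of 11943 protein-coding genes read the same way (10.0%), a set limited to genes whose expected counts averaged at least 100, with 46 members in it. In 20 members, among them Rab3a to Rab3d, Rab6a, Rab6b and Rab7, the cysteine codons were the last and the third from last. Among the 11943 genes this arrangement occurred in 21, of which 17 were members. In 15 members, Rab1a and Rab10 among them, they were the last 2 codons, an arrangement of 16 of the 11943 genes, 12 of them members. The pair lay at the third and the fourth codon from the end in 6 members, which included Rab5a, Rab5b and Rab5c, at the fourth and the fifth in 6, which included Rab11a and Rab11b, and at the second and the third in 3. In 9 members, Rab8a, Rab8b, Rab13, Rab18, Rab23, Rab28, Rab38, Rab40b and Rab40c, the fourth codon from the end was the only cysteine codon of the last 5. Every subfamily (members with the same number in their symbol) shared 1 arrangement except Rab7, where Rab7 and Rab7b differed.

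Levels are TPM (the deposited abundance per length, brought to an equal total in both libraries), and detection means that neither library was under 1 TPM. Of the 59 members, 49 were detected (83.1%, against 59.6% of protein-coding genes). At 10 TPM or more in both libraries stood 44 members (74.6%, against 37.6%), and at 100 TPM or more 8 members (13.6%, against 4.28%). The members summed to 2974 TPM in replicate 1 and 2967 TPM in replicate 2, which was 0.589% and 0.580% of the TPM of protein-coding genes. The median member stood at 18.4 ± 0.25 TPM (SD, n = 2). The median of the detected members was 25.3 TPM, and that of all 13124 detected protein-coding genes was 16.4 TPM. In bulk tissue, fewer cells of a type and less RNA per cell cannot be told apart.

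Abundance was spread over many members rather than held by 1. The 6 highest, Rab3a, Rab6b, Rab11a, Rab6a, Rab11b and Rab7, held 45.1% of the summed TPM, and 18 members were needed to reach 80%. By mean TPM, 10 members were at 100 or more, 9 between 50 and 100, 25 between 10 and 50, 5 between 1 and 10, and 10 under 1. In the order of mean levels, 24 of 58 neighbouring pairs did not overlap between the libraries, a share that was not counted over all protein-coding genes. With 2 libraries, genes of equal level can also fail to overlap, so the count does not show how many pairs differ. Rab3a and Rab6b were each apart from the next, whereas the levels of Rab11a, Rab6a and Rab11b overlapped in that order, and so did those from Rab2a through Rab14, Rab1a, Rab10 and Rab18.

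**Figure D1:**
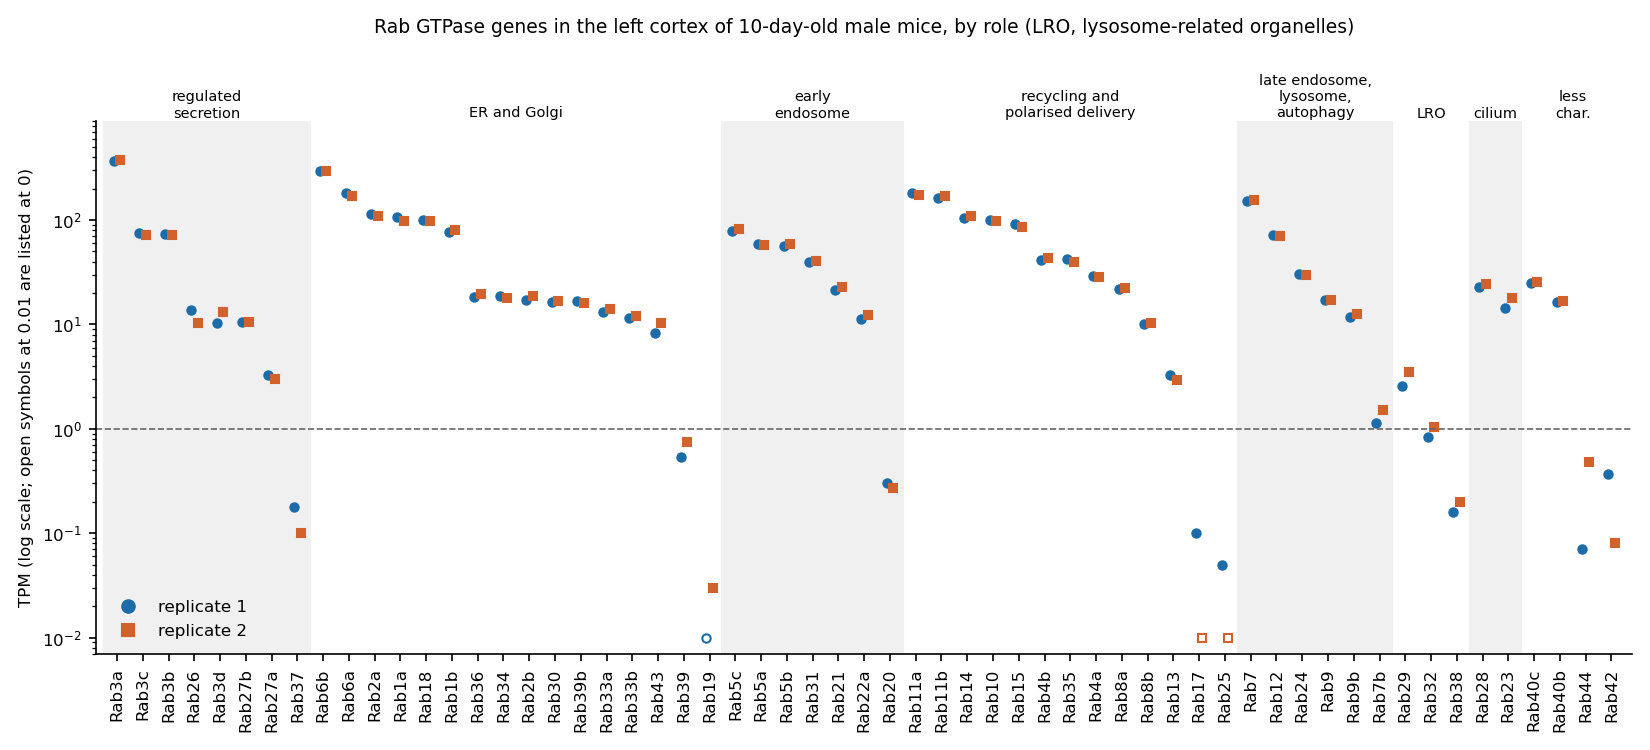
TPM (log axis) of the 59 Rab genes in replicate 1 (circles) and replicate 2 (squares), grouped by role and ordered by mean within each role; open symbols at 0.01 are genes listed at 0, and the dashed line is 1 TPM. The symbols of both libraries lie close together for members above 10 TPM, and Rab3a is the highest member at 369 and 377 TPM.

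The libraries held 31254528 and 30218308 expected counts, of which the members took 148276 and 141905. Markers of projection neurons, interneurons, astrocytes, oligodendrocyte precursors, oligodendrocytes, microglia and endothelium, 2 genes each, were all detected, with the projection-neuron marker Slc17a7 at 499 and 484 TPM and the astrocyte marker Slc1a2 at 624 and 626 TPM. Other lists differed between the libraries. The 3 choroid plexus markers summed to 8.13 TPM in replicate 1 and 309 in replicate 2, with Folr1 at 0.42 and Clic6 at 0.36 TPM in replicate 1. The 3 striatal markers summed to 86.4 and 54.1 TPM, with Drd1, Adora2a and Ppp1r1b all lower in replicate 2, and the 2 erythroid markers to 799 and 554 TPM.

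The Rabs of regulated secretion, 8 genes, summed to 557 ± 1.9 TPM (SD, n = 2), 18.7% of all members, and 7 were detected. Rab3a, the main Rab of synaptic vesicles (ENSMUSG00000031840.12, chromosome 8, 70754679 to 70758677, plus strand), stood at 369 and 377 TPM. It was the most abundant member and ranked 128 of the 22028 protein-coding genes. Rab3c (ENSMUSG00000021700.10, chromosome 13) had 75.5 and 71.3 TPM and Rab3b (ENSMUSG00000003411.10, chromosome 4) 72.8 and 72.1 TPM. These synaptic paralogues overlapped each other and lay far under Rab3a in both libraries. Rab3d, the member of the subfamily best known from granules of secretory cells outside the brain, had 10.2 and 13.3 TPM. Rab26, which binds secretory and synaptic vesicles, had 13.9 and 10.2 TPM. Rab27b and Rab27a, which dock secretory granules, had 10.5 and 10.6 TPM and 3.31 and 2.97 TPM. Rab26, Rab3d and Rab27b thus lay close together, between 10.2 and 13.9 TPM. The granule Rab first studied in mast cells, Rab37, was at 0.18 and 0.10 TPM, with 9 and 4 counts.

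The largest role group by number and by sum was ER and Golgi traffic, with 16 genes, 983 ± 14 TPM (SD, n = 2), 33.1% of all members, and 14 detected. Rab6b, the neuron-enriched form of a Rab of the Golgi (ENSMUSG00000032549.7, chromosome 9, 103111787 to 103185276, plus strand), stood at 295 and 293 TPM. Its widely expressed paralogue Rab6a (ENSMUSG00000030704.14, chromosome 7, 100607410 to 100641268, plus strand) had 180 and 168 TPM. Rab2a, which acts between ER and Golgi and on dense-core vesicles, had 114 and 109 TPM. Levels of both Rab6 genes and of Rab2a did not overlap. Rab1a and Rab1b, the pair that drives transport from the ER to the Golgi, had 106 and 97.8 TPM and 77.7 and 79.9 TPM. Rab18, a Rab of the ER and of lipid droplets, had 99.3 and 98.1 TPM. The group then dropped to 8 members between 8.21 and 19.7 TPM in either library: Rab36, Rab34, Rab2b, Rab30, Rab39b, Rab33a, Rab33b and Rab43. Rab39, which shares its subfamily with the X-linked gene Rab39b, had 0.54 and 0.74 TPM. Rab19 was listed at 0 in replicate 1, where a count of 0 allows up to 3 counts (0.0960 CPM, the count scaled by the library total), and had 1 count in replicate 2.

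The 7 early endosome Rabs summed to 270 ± 5.3 TPM (SD, n = 2), 9.08% of all members, and 6 were detected. Rab5c, Rab5a and Rab5b, which drive fusion of early endosomes, had 77.8 and 81.3, 59.1 and 57.8, and 56.6 and 58.9 TPM. Rab5c was the highest in both libraries, and Rab5a and Rab5b overlapped. Rab31, Rab21 and Rab22a, which sort cargo from early endosomes, had 39.4 and 40.2, 21.5 and 22.7, and 11.4 and 12.2 TPM. Rab20 had 0.30 and 0.27 TPM, with 8 and 7 counts.

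Recycling and polarised delivery held 13 genes with 789 ± 5.1 TPM (SD, n = 2), 26.6% of all members, and 11 were detected. Rab11a, the Rab of recycling endosomes (ENSMUSG00000004771.12, chromosome 9, 64715299 to 64737758, minus strand), had 181 and 174 TPM. Rab11b, its paralogue (ENSMUSG00000077450.13, chromosome 17, 33742484 to 33760530, minus strand), had 163 and 169 TPM, under Rab11a in both libraries of the first quantification. Rab14, which links endosomes and Golgi, had 105 and 109 TPM. Rab10, which delivers membrane to the surface, had 101 and 99.0 TPM. Rab14 lay apart from Rab11b above it and from Rab10 under it in both libraries. Rab15, a neuron-enriched endocytic Rab, had 92.7 and 86.7 TPM. The other detected members were the fast-recycling Rab4b and Rab4a, Rab35, the exocytic Rab8a and Rab8b, and Rab13, which is best known from epithelial junctions, with 2.95 to 43 TPM in either library. The epithelial Rabs Rab17 and Rab25 had 3 counts and 1 count in replicate 1 and were listed at 0 in replicate 2, where a count of 0 allows up to 3 counts (0.0993 CPM).

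All 6 members of the late endosome, lysosome and autophagy group were detected, with a sum of 285 ± 1.3 TPM (SD, n = 2), 9.61% of all members. Rab7, which takes cargo to the lysosome (ENSMUSG00000079477.9, chromosome 6, 87999106 to 88045270, minus strand), had 152 and 155 TPM. Rab12, which acts on recycling receptors and lysosomes, had 72.3 and 70.4 TPM, and Rab24, linked to autophagy, had 30.6 and 29.7 TPM. Rab7 alone thus held more than the other 5 members together in both libraries. Rab9 and Rab9b, which return receptors from late endosomes to the Golgi, had 17.1 and 17.2 TPM and 11.8 and 12.6 TPM, and Rab7b had 1.13 and 1.51 TPM.

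The lysosome-related organelle Rabs were the lowest group, with 4.16 ± 0.83 TPM (SD, n = 2) over 3 genes. Rab29, a substrate of the kinase Lrrk2, had 2.58 and 3.51 TPM and was the detected member. Rab32 and Rab38, which carry pigment enzymes to melanosomes, had 0.83 and 1.04 TPM and 0.16 and 0.20 TPM. Of the cilium-linked Rabs, Rab28 had 23.0 and 24.5 TPM and Rab23, a brake on Hedgehog signalling, 14.4 and 17.9 TPM. Among 4 less characterised members, Rab40c and Rab40b, which carry a domain that recruits ubiquitin ligases, had 24.9 and 25.7 TPM and 16.3 and 16.9 TPM. Rab44 had 0.07 and 0.48 TPM, and Rab42 0.37 and 0.08 TPM, from 3 and 7 counts and from 5 counts and 1 count.

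A list of 11 neuron-enriched Rabs cuts across these roles: Rab3a, Rab3b, Rab3c, Rab6b, Rab11b, Rab15, Rab26, Rab27b, Rab33a, Rab39b and Rab40b. All 11 were detected, against 83.1% of all members and 59.6% of protein-coding genes. They summed to 1138.4 and 1138.2 TPM, 38.3% of the TPM of all members. Their median of 72.0 ± 1.1 TPM (SD, n = 2) stood beside 18.4 TPM for all members. The list was split, since Rab26, Rab27b, Rab33a, Rab39b and Rab40b lay under that median of all members, between 10.5 and 16.6 TPM on the mean. Rab3a and Rab6b were the highest of the list, with 373 and 294 TPM on the mean. At the other end, the 10 members under 1 TPM in a library, Rab32, Rab39, Rab20, Rab44, Rab42, Rab38, Rab37, Rab17, Rab25 and Rab19, had between 0 and 42 counts per library.

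Paralogues allow a comparison within 1 role. A subfamily is here the members that share the number in their symbol, so related members with other numbers are left out. There were 14 subfamilies of at least 2 members, with 31 genes. In the Rab3 subfamily Rab3a held 70.3% of the TPM, and its level was 5.09 ± 0.29 times that of Rab3c, 5.15 ± 0.11 times that of Rab3b and 32.2 ± 5.4 times that of Rab3d (SD, n = 2). Rab7 over Rab7b gave the widest ratio of the 17, 118 ± 22, and Rab39b over Rab39 gave 26.4 ± 6.4. Rab2a was 6.26 ± 0.54 times Rab2b, Rab27b 3.37 ± 0.30 times Rab27a, and Rab8a 2.16 ± 0.029 times Rab8b. In these 6 subfamilies the highest member stood at 2.14 times or more the level of each other member in both libraries. All these ratios are of gene-level TPM, which includes non-coding transcripts. Those took 63.1 ± 1.5% of the TPM of Rab8a (46.5% in the second quantification), while Rab8b has 1 annotated transcript, which is protein-coding. The ratio of Rab8a to Rab8b is therefore not one of coding RNA, and its order for coding transcripts alone was not tested.

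In the other subfamilies the members lay closer. Rab6b was 1.69 ± 0.075 times Rab6a, Rab40c 1.52 ± 0.0044 times Rab40b, Rab4b 1.46 ± 0.055 times Rab4a, and Rab9 1.41 ± 0.060 times Rab9b (SD, n = 2). Rab5c exceeded Rab5a 1.36 ± 0.065 times and Rab5b 1.38 ± 0.0035 times. Rab1a was 1.30 ± 0.10 times Rab1b and Rab33a 1.15 ± 0.019 times Rab33b. Rab11a over Rab11b was nearest to 1, with 1.11 in replicate 1 and 1.03 in replicate 2. Non-coding transcripts took 8.5 ± 4.5% of Rab11a and 44.3 ± 2.3% of Rab11b there (SD, n = 2), and 40.5% and 51.6% in the second quantification. This ratio too is not one of coding RNA. For all 17 ratios the order was the same in each library of the first quantification and in the posterior mean TPM. In the second quantification 16 of the 17 kept it in each library. The other was Rab11a over Rab11b, at 369 against 312 TPM in replicate 1 and 329 against 349 TPM in replicate 2, a ratio of 1.06 ± 0.17 (SD, n = 2). The sizes of several ratios also differed. In the second quantification Rab6b was only 1.10 ± 0.011 times Rab6a, Rab5c 2.35 ± 0.24 times Rab5a and 2.48 ± 0.15 times Rab5b, and Rab7 222 ± 113 times Rab7b. Coding sequences of paralogues were 65.4% (Rab7 and Rab7b) to 79.3% (Rab8a and Rab8b) identical base for base, and 78.5% for Rab6a and Rab6b.

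**Figure D2:**
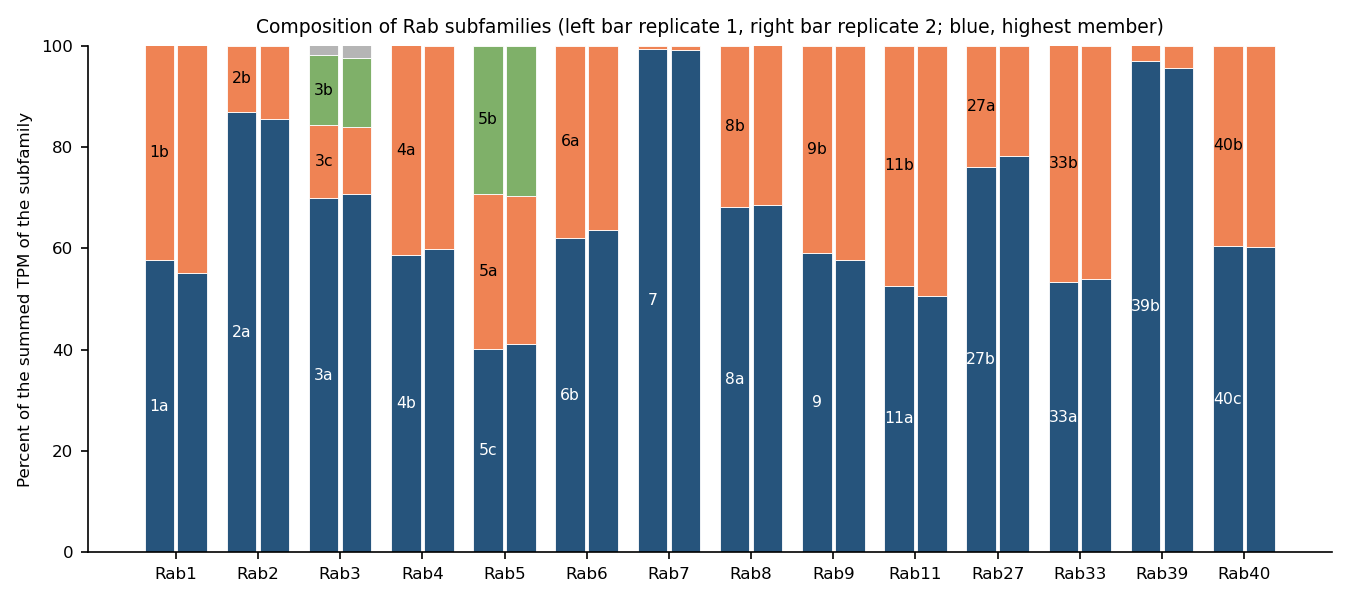
Percent of the summed TPM of each of 14 Rab subfamilies held by its members, with replicate 1 as the left and replicate 2 as the right bar of each pair; blue is the highest member and the names leave out "Rab". Rab3a holds 70.3% of its subfamily on average and Rab7 99.1%, while Rab11a and Rab11b share theirs at 51.6% and 48.4%.

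Most members differed little between the libraries. Of 46 members whose expected counts averaged at least 100, 27 were higher and 19 lower in replicate 2. The median log2 ratio of TPM (replicate 2 over replicate 1, with 0.1 TPM added to each) was 0.03, beside 0.04 for all 11995 protein-coding genes at that count, and the SD was 0.13 beside 0.19. Past 1.2-fold lay 4 members (8.70%, against 11.4% of protein-coding genes), 3 of them higher (against 8.44%) and 1 lower (against 2.93%) in replicate 2. On CPM, the 95% Clopper-Pearson interval of the ratio lay apart from 1 for 9 members (19.6%, against 24.4%). These intervals cover counting error only and leave out variation between animals and libraries. Reads carried no molecular identifiers, so the counts are of reads and not of molecules.

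Rab26 had the largest difference of the 46 in the first quantification, 13.9 TPM in replicate 1 and 10.2 TPM in replicate 2, a log2 ratio of -0.44. Its counts of 379 and 283 gave a CPM ratio of 0.772 (95% interval 0.660 to 0.903). Rab26 overlaps Traf7 on the same strand by 698 bases and its antisense gene Rab26os, which had 10.2 and 9.5 TPM. The striatal markers were also lower in replicate 2, and their part in the value of Rab26 was not tested. Rab43, a Rab of the ER and Golgi, had 8.21 TPM in replicate 1 and 10.4 TPM in replicate 2, a log2 ratio of 0.34, with a CPM ratio of 1.28 (1.15 to 1.44). It overlaps Gm45140 on the same strand by 23304 bases, a gene that had 1.84 and 0.73 TPM, and the choroid plexus markers were also higher in replicate 2. Their part in the value of Rab43 was not tested.

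Rab3d and Rab23 differed in TPM more than in counts. Rab3d had a log2 ratio of TPM of 0.37, but its 658 and 689 counts gave a CPM ratio of 1.08 (0.972 to 1.21). Rab23 had 0.32, with 775 and 856 counts and a CPM ratio of 1.14 (1.04 to 1.26). In both genes the long transcript that leads the gene in the first quantification had a smaller share in replicate 2 there. Rab3d-201, of 3835 bases, held 78.4% of the gene's TPM in replicate 1 and 54.0% in replicate 2. Rab23-201, of 4322 bases, held 41.2% and 28.7%. Other transcripts of similar length rose: Rab3d-203 (3886 bases) from 3.76% to 13.0%, and Rab23-202 (4218 bases) from 0 to 8.53%. In the second quantification Rab3d-201 fell from 33.6% to 23.4%, while Rab23-201 rose from 28.7% to 31.0%. The part of transcript shares in the TPM ratios was not tested. On CPM, under each of 4 scalings, 2 members lay past 1.2-fold, 1 in each direction, against 5.35% to 6.83% of protein-coding genes. In the second quantification 3 of the 46 members lay past it (against 14.5%): Rab3d with a log2 ratio of TPM of 0.42, Rab2b with 0.27 and Rab26 with -0.27. Rab43, at 0.23, and Rab23, at 0.016, did not. In the first quantification the member with the next largest difference after these 4, Rab27a, had a log2 ratio of -0.15 from 155 and 139.6 counts.

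**Figure D3:**
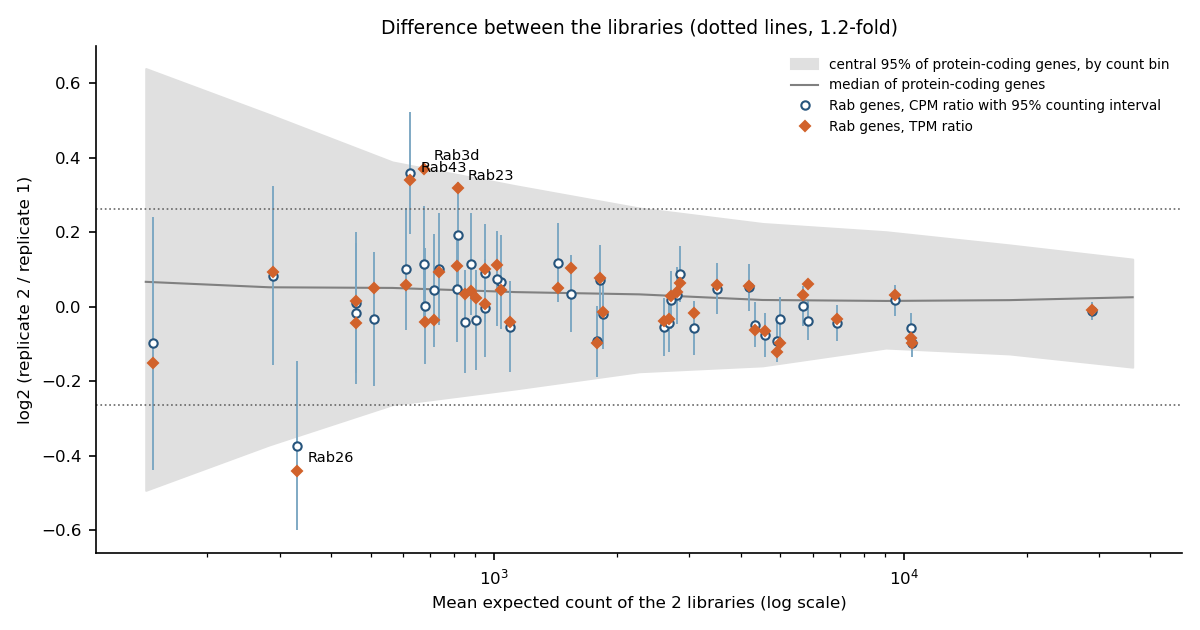
Log2 ratio of replicate 2 over replicate 1 against the mean expected count (log axis) for the 46 Rab genes with a mean count of 100 or more, as TPM (diamonds) and as CPM with 95% counting intervals (circles), over the central 95% and the median of protein-coding genes in count bins. Rab26, Rab43, Rab3d and Rab23 lie past the 1.2-fold lines in TPM, and for Rab3d and Rab23 the CPM ratio lies inside them.

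Each library was quantified by 2 deposited methods, which could be set side by side. For the 49 detected members, the levels of both had a Pearson r of 0.991 on log2 TPM and a Spearman rho of 0.987 across genes, which share their reads and are not independent replicates. The second gave higher TPM in general, by a median factor of 1.53 over detected protein-coding genes. Within 1.5 times that median factor lay 45 of the 49 members (91.8%, against 94.0% of detected protein-coding genes), and 4 lay above (8.16%, against 4.12%): Rab7, Rab5c, Rab18 and Rab34, at 1.82, 1.65, 1.64 and 1.54 times it. Their counts hardly differed, since the second quantification gave 1.10, 1.00, 1.07 and 1.16 times the counts of the first. In each of them a transcript under 600 bases held more of the gene in the second. For Rab7-207 (550 bases) it was 46.5% against 4.9%, for Rab5c-203 (441 bases) 48.0% against 0.49%, for Rab18-202 (535 bases) 40.4% against 0, and for Rab34-209 (567 bases) 23.9% against 0. Rab6a, at 1.43 times the median factor, had 37.4% against 2.5% in Rab6a-204 (567 bases, a retained-intron transcript). The trait was not limited to the 4, since Rab11b, at 1.30 times the median factor, had 51.3% against 0.495% in Rab11b-205 (503 bases).

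The 59 members had 256 annotated transcripts, and 10 members had 1 only. The leading transcript is the one with the highest mean share of the gene's TPM over both libraries. It was protein-coding in 44 of the 46 members with a mean count of 100 or more (95.7%, against 93.5% of 11990 protein-coding genes). The exceptions were Rab11b and Rab8a. Rab11b was led by Rab11b-204, a transcript annotated for nonsense-mediated decay, at 42.1% and 45.3%, ahead of the protein-coding Rab11b-203 at 27.5% and 27.3%. In the second quantification Rab11b-204 held 0.32 ± 0.45% (SD, n = 2), and the non-coding Rab11b-205, of 503 bases, led with 51.3%. Rab8a was led by Rab8a-202, a retained-intron transcript of 542 bases, at 62.0% and 64.2%, over the protein-coding Rab8a-201 at 38.0% and 35.8%. In the second quantification Rab8a-201 led on the mean with 53.5 ± 5.4% (SD, n = 2). Its libraries differed there, with Rab8a-202 just ahead in replicate 1 (50.4% against 49.6%) and Rab8a-201 ahead in replicate 2 (57.3% against 42.7%).

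Both quantifications named the same leading transcript for 35 of the 46 members (76.1%, against 79.1%). The 11 others were Rab11b, Rab8a, Rab12, Rab18, Rab23, Rab27a, Rab30, Rab34, Rab3a, Rab3d and Rab7. Rab3a, the most abundant member, was led by Rab3a-201 with 81.3% and 78.2% in the first quantification. In the second, Rab3a-201 held 28.5 ± 29% and Rab3a-203, also protein-coding, led on the mean with 31.2 ± 8.6% (SD, n = 2). Rab3a-203 led in neither library, since Rab3a-201 was highest in replicate 1 with 48.7% and Rab3a-202 in replicate 2 with 42.7%. The spread of Rab3a-201 between the libraries there was as large as its mean. Rab12 was led by Rab12-205 with 92.3 ± 1.4% in the first and by Rab12-201 with 81.5 ± 8.2% in the second. Rab27a was led by Rab27a-201 with 65.2 ± 6.6% in the first, against 12.4 ± 18% in the second, where Rab27a-203 led with 64.1 ± 27% (SD, n = 2). Rab18 and Rab23 had non-coding leaders in the second quantification, Rab18-202 at 40.4% and the retained-intron transcript Rab23-208 at 34.8%. In replicate 1 there, Rab18-202 lay just under the protein-coding Rab18-203, with 37.1% against 38.1%. The leaders of Rab7, Rab3d, Rab34 and Rab30 changed between protein-coding transcripts, to Rab7-207, Rab3d-203, Rab34-201 and Rab30-201. For Rab30 this held on the mean only, since Rab30-205 lay just above Rab30-201 in replicate 1 of the second quantification (31.3% against 30.9%). Below the count minimum Rab17, Rab25 and Rab29 also had different leaders. Between the libraries of the first quantification 45 of 46 leaders were the same, a share that was not counted over all protein-coding genes.

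**Figure D4:**
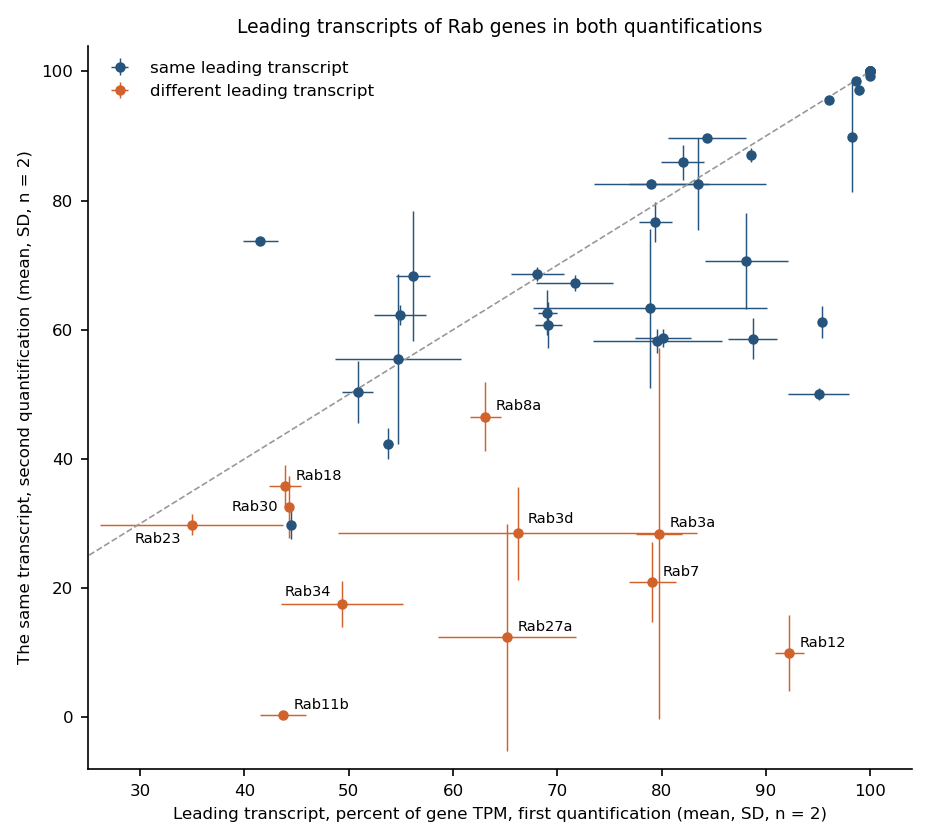
Share of the gene's TPM held by the leading transcript of the first quantification (x axis, percent) and by the same transcript in the second (y axis, percent), for 46 Rab genes; points are means and bars the SD of both libraries (n = 2), and the dashed line marks equal shares. Rab12, Rab7, Rab3a, Rab27a and Rab11b lie far under the line, and genes with 1 annotated transcript lie on it at 100%.

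Non-coding transcripts took a median of 4.64% of a member's TPM, beside 10.9% for protein-coding genes. They took over 20% in 12 of the 46 members in the first quantification (26.1%, against 35.0%) and in 16 in the second (34.8%, against 39.6%). In the first quantification Rab8a was the highest of the 12 with 63.1 ± 1.5%, and Rab23 followed with 60.8 ± 2.7%, Rab11b with 44.3 ± 2.3% and Rab26 with 38.5 ± 4.7% (SD, n = 2). In the second, Rab23 was the highest with 70.2%, and Rab11b had 51.6%, Rab8a 46.5% and Rab26 31.9%. The non-coding share of Rab26 included Rab26-205, a retained-intron transcript whose share in the first quantification was 21.6% in replicate 1 and 33.8% in replicate 2. For these genes the gene-level TPM is not a level of coding RNA.

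Reads shared with copies or neighbours touch some members. Expected counts were whole in both libraries, within 0.005, for 37 of the 46 members (80.4%, against 85.2%). They were not whole for Rab11a, Rab11b, Rab7, Rab2a, Rab18, Rab5b, Rab8b, Rab43 and Rab27a, as results when reads are divided between genes. The processed pseudogene Rab11b-ps2 had 51.2 and 44.2 counts in the first quantification and 479 and 378 in the second, beside 4189 and 4199 counts for Rab11b. Rab7-ps1 had 16.2 and 16.8 counts beside 5762 and 5578 for Rab7. On the opposite strand 21 of the 59 members overlap another gene, a share that was not counted over all protein-coding genes. Rab10 overlaps Rab10os (17.7 and 18.6 TPM), Rab24 overlaps Prelid1 (84.1 and 87.9 TPM) and Rab15 overlaps Fntb (13.1 and 11.2 TPM). The counting's strand setting is not stated in any source used here, so reads of such pairs could have been mixed.

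Promoters were compared because the members included both abundant and undetected genes. RefSeq windows of 300 bases around annotated start sites (build GRCm38.p6) matched 48 of the 59 members, and the dinucleotide CG was counted in each (a palindrome, so the count is the same on both strands; for several starts the highest count was used). The 41 detected members had a median of 25, and 38 of them had 10 or more (92.7%, against 87.4% of detected protein-coding genes). The 7 members that were not detected had a median of 9, and 3 had 10 or more (42.9%, against 19.5% of protein-coding genes that were not detected). The split thus ran the same way as for other genes. The following sequences show a CG-rich promoter of an abundant member and the exceptions on each side, as the bases that precede the annotated gene, 5′ to 3′ on the gene's strand, with CG in capitals.
Rab10: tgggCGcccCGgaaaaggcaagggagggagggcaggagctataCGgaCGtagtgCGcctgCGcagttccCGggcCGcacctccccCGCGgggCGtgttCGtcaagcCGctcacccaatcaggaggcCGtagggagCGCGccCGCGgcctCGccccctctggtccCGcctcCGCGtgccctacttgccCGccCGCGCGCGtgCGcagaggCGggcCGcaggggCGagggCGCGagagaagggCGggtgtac
Rab33a: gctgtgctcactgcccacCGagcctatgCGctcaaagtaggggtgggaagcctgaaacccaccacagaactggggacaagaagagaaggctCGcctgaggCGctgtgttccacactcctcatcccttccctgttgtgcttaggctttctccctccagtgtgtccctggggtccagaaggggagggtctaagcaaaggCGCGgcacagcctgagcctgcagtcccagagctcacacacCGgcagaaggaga
Rab39: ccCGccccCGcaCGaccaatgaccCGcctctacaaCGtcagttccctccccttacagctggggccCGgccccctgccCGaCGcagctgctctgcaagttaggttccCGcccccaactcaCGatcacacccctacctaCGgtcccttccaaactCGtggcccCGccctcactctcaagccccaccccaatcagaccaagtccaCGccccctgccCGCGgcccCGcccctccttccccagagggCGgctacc

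The Rab10 sequence (chr12:3309970-3310219, minus strand) held 34 CG in its 250 bases. That of Rab33a (chrX:48519035-48519284, plus strand) held 7, yet Rab33a was detected at 13.2 and 14.1 TPM. Rab39 (chr9:53706233-53706482, minus strand) held 18 and was not detected. With Rab33a, the detected members under 10 CG were Rab3b with 8 and Rab9 with 9, and Rab3b stood at 72.5 ± 0.45 TPM (SD, n = 2). Rab33a, Rab9, Rab9b and Rab39b are the 4 X-linked members, and all 4 lay between 11.8 and 17.2 TPM in either library.

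The genes that act on Rabs were described from lists of lipidation and recycling genes, exchange factors, GTPase-activating proteins, effectors, kinases and phosphatases, and Rab-like proteins. Of 132 matched genes 121 were detected, against 59.6% of protein-coding genes. All 7 lipidation and recycling genes were detected, led by Gdi2, which takes GDP-bound Rabs off membranes, with 161 and 157 TPM, and Rabac1, a Rab-binding membrane protein of the Golgi, with 140 and 153 TPM. Both lay under Rab3a and Rab6b in each library. Of the exchange factors 30 of 33 were detected, led by Sbf1 with 84.0 and 97.9 TPM and Madd, which acts on Rab3, with 79.3 and 79.7 TPM. Dennd1c, Dennd2c and Dennd2d were under 1 TPM, at 0.64 and 0.91, 0.56 and 0.48, and 0.02 and 0.05. In the second quantification Dennd1c had 7.77 TPM on the mean, Dennd2c 1.33 TPM and Dennd2d 0.072 TPM. Among GTPase-activating proteins 36 of 37 were detected, led by Rabgap1l with 81.0 and 85.5 TPM and Evi5l with 59.2 and 64.3 TPM, and Tbc1d2 was under 1 TPM with 0.48 and 0.83.

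Effectors were detected for 39 of 45 genes. Rims1, the active-zone scaffold that binds Rab3, led with 114 and 117 TPM, followed by Rufy3 with 101 and 99.6 TPM. Those under 1 TPM in a library were Sytl1 (0.27 and 0.31), Sytl3 (0.23 and 0.39), Sytl4 (0.19 and 0.10), Unc13d (0.55 and 0.31), Mlph (0.41 and 0.31) and Rab11fip1 (1.09 and 0.91). In the second quantification Unc13d, Rab11fip1 and Sytl4 had means of 2.45, 1.42 and 1.11 TPM. Sytl1, Sytl3 and Mlph stayed under 1 TPM on the mean there. All 4 kinase and phosphatase genes were detected. Ppm1h, a phosphatase of Rabs, had 36.1 TPM in both libraries and Ppm1m 11.4 and 13.2 TPM, while the Rab kinase Lrrk2 had 4.85 and 4.59 TPM. Of 6 Rab-like genes 5 were detected, led by Rabl6 with 45.1 and 43.2 TPM and the ciliary transport gene Ift22 with 41.5 and 40.9 TPM, and Rasef had 0.10 and 0.06 TPM.

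**Figure D5:**
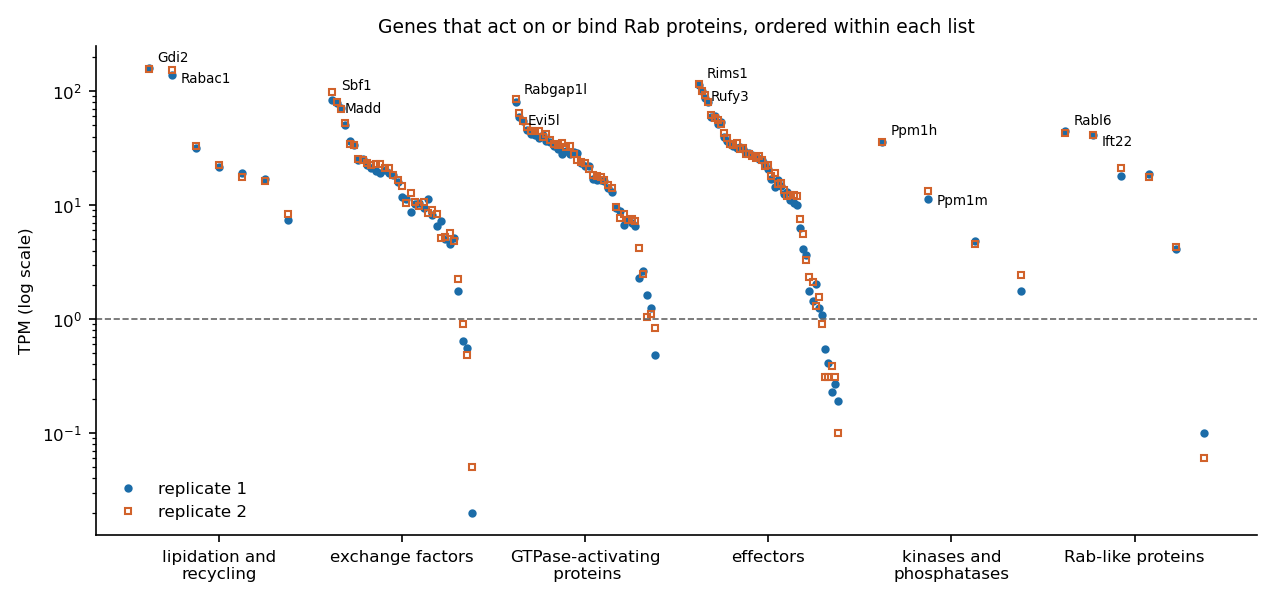
TPM (log axis) of genes that act on or bind Rab proteins in replicate 1 (circles) and replicate 2 (squares), in 6 lists and ordered by mean within each; the dashed line is 1 TPM and the 2 highest genes of each list are named. Gdi2, at 161 and 157 TPM, is the highest gene plotted, and 11 genes fall under the line in at least 1 library.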

How the data were processed

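Total RNA of 2 libraries of 1 group was measured. Per the deposited file descriptions, the authors made a first quantification from transcriptome alignments and a second from reads with an index, on mm10 with GENCODE M21. Which programs, versions and strand setting were used is not stated in the sources used here. The deposited tables of the first hold expected counts, TPM and the percent of a gene per transcript. The deposited tables of the second hold estimated counts and TPM per transcript, summed here by gene. TPM scales over all records, short RNAs included. Absolute TPM differed between the quantifications, and the cause was not tested. The reference is 1 parent strain, and alleles were not separated.

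Levels are TPM of the first quantification. Ratios between libraries used 0.1 TPM as pseudocount and needed expected counts averaging at least 100, over all protein-coding genes. Counting intervals were tested on simulated counts that held counting error only, so the test does not cover variation between animals or libraries. Python 3.11.15, numpy 2.4.6, pandas 2.3.3, scipy 1.17.1, Biopython 1.88 and matplotlib 3.10.9 were used, and edgeR 4.0.16 (R 4.3.3) gave TMM factors for an alternative scaling. Depth was 31254528 and 30218308 expected counts, with a median half-width of the members' counting intervals of 0.10 (log2). Alternatives were other TPM and count minimums, pseudocounts, scalings, the second quantification, posterior means and leaving out a library.

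Members and lists were chosen with earlier results of these data known. Named were the 3 highest members of each role, members under 1 TPM, all subfamilies, the 5 largest differences between libraries, members with differing or non-coding leading transcripts, and the 2 highest and the undetected genes of each regulator list. A gene of the lipidation and recycling list is not reported here.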

Additional observations from a re-analysis of the deposited data

How the results depend on the processing

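The number of members detected stayed between 45 and 51 over minimums of 0.5 and 5 TPM, posterior means, the second quantification and either library alone (49 to 50). The summed TPM was 5843 when rescaled to protein-coding genes and 5214 in the second quantification (2967 to 2974 with 1 library). The median TPM was 36.2, 30.8 and 19.5 when rescaled, in the second quantification and as posterior means (18.2 to 18.6 with 1 library). Rab3a held 10.6% of the summed TPM in the second quantification (12.4% to 12.7% with 1 library). Past 1.2-fold between the libraries lay 8 of 51 members at a mean count of 20 or more (17.1% of protein-coding genes), 14 of 59 with no minimum (22.7%), and 2 of 46 on CPM under the total, TMM, median-of-ratios and spike-in scalings (5.35% to 6.83%), beside 4 of 46 in the report (11.4%). The causes were not tested, except that lower minimums test more genes. Protein-coding leading transcripts numbered 43 in the second quantification and 44 with either library. The same leader in both quantifications was named for 35 to 38 members with 1 library. Of the regulator lists, 127 genes were detected in the second quantification and 105 at a minimum of 5 TPM, beside 121 in the report. None of 68 alternative values of the 17 paralogue ratios reversed, with the second quantification entered as the mean of its libraries, but in its replicate 2 Rab11a (329 TPM) lay under Rab11b (349 TPM). All of these values used gene-level TPM, and coding transcripts alone were not compared. The count of members with over 20% non-coding TPM in the second quantification (16, beside 12) was added after the data were seen. Ratios between libraries cannot be formed without 1 of them. No paired analysis was possible because the samples form a single group. With 2 libraries the SD is imprecise, members under about 100 counts are limited by counting, and bulk TPM does not resolve cell types.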
